A study of Mus musculus with 16 samples.

Results

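The soleus of mice on day 7 of a gradual fall in oxygen was compared with the soleus on day 0. The samples were chosen by their titles, which gave 3 RNA samples at day 7 and 4 RNA samples at day 0, 7 of the 14 RNA samples of the series. All samples came from male mice, and the labels give the treatment hypoxia at both days, with a time of 7 days for day 7 and of 0 days for day 0. Oxygen was brought down gradually over that week to 10%, so day 7 stands at the end of the fall and day 0 before it. Day 3 (3 RNA samples) and day 14 (4 RNA samples) entered the model, and day 3 served as a second point of comparison for day 7. Neither strain nor age is given in the labels, and nothing in them ties the RNA samples to separate mice, so the p-values measure the spread between RNA samples, which may in part be technical. The design names 4 muscles per day, and a further day 7 sample was not analysed here.

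The soleus is a postural muscle of the lower hindlimb, built mainly from slow and mixed fibres that rely on mitochondria and myoglobin. When oxygen falls, prolyl hydroxylases of the Egln family lose activity, the alpha subunits of the hypoxia-inducible factors (HIF) escape destruction by the von Hippel-Lindau protein, and genes of glycolysis, iron uptake, blood vessel growth and mitochondrial turnover are induced. HIF binds a short core, ACGTG or GCGTG, in front of many of its targets, and heat shock factor binds repeats of GAA and TTC in front of chaperone genes. Most control of HIF acts on the protein and need not be seen in the mRNA of its subunits.

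The promoters of 5 genes at the centre of the comparison are shown here so that the cores can be read in them. Each sequence is the 250 bases before the transcription start in RefSeq (GRCm38.p6), 5′ to 3′ on the strand of the gene, with matches to the cores on either strand in capitals. Where several promoters were listed for a gene, the one with the most matches was taken. Pfkfb3 (chr2:11502091-11502340, minus strand, one of 2 listed promoters), Pfkfb4 (chr9:108991652-108991901, plus strand) and Ankrd37 (chr8:45999851-46000100, minus strand) are HIF targets that rose at day 7, and Ppp1r3c (chr19:36736605-36736854, minus strand) is a HIF target that fell. Hspa1a (chr17:34972157-34972406, minus strand) is a heat shock gene that fell, and its capitals mark the core GAANNTTC.
Pfkfb3: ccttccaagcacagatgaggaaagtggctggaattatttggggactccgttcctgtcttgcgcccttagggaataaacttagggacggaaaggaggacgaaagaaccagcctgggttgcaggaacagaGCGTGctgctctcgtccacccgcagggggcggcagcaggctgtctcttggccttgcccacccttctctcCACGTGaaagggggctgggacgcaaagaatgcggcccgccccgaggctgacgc
Pfkfb4: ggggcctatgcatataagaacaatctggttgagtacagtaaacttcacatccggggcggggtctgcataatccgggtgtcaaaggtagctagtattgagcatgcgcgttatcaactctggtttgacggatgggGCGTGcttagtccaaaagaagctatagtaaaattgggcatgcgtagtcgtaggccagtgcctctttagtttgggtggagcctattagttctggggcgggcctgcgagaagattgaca
Ankrd37: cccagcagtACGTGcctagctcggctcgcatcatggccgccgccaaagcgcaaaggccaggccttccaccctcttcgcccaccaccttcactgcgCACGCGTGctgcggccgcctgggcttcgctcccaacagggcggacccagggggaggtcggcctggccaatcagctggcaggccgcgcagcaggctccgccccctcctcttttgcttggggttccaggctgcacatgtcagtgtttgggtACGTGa
Ppp1r3c: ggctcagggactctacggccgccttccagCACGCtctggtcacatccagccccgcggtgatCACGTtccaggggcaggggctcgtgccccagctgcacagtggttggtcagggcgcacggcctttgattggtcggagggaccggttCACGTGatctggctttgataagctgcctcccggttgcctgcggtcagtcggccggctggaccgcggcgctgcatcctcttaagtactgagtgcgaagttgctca
Hspa1a: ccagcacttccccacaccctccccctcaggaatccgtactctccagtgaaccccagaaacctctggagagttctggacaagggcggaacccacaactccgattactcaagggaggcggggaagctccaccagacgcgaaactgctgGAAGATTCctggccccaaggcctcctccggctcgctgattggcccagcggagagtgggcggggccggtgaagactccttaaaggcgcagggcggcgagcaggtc

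Matches were counted on both strands, so that the palindrome CACGTG counted as 2. In the shares below a gene counted if any of its listed promoters held a match, so genes with more promoters had more chances. Pfkfb3 had 2 matches to ACGTG, both from 1 such palindrome, and 1 to GCGTG. Pfkfb4 had 1 match to GCGTG. Ankrd37 had 2 to each core, and Ppp1r3c had 3 to ACGTG and 1 to GCGTG. Vldlr, a HIF target that also rose at day 7, had 0 matches in its 2 listed promoters, and its sequence is not shown. Of the 38 HIF targets measured, 30 had a promoter in the RefSeq table, and 27 of these (90.0%) held ACGTG or GCGTG, against 41.5% of 27025 genes in that table and 57.5% of the 11192 that were also measured. The share was 6 of 7 among targets that were higher at day 7, 3 of 3 among those lower and 18 of 20 among those that did not pass. GAANNTTC was found in the promoters of 11 of 35 heat shock proteins and co-chaperones (31.4%), against 7.73% of all genes and 6.36% of those measured, and in 3 of the 11 members that were lower, 3 of the 6 that were higher and 5 of the 18 that did not pass. A match describes the letters in this window only.

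Labelled RNA was hybridised to Agilent arrays with 1 dye, and values below are log2 levels over the 75th percentile of their own array. The 3 day 7 arrays lie on slide 1. Day 0 RNA samples 1 and 2 were run on slides 1 and 2, and day 0 RNA samples 3 and 4 on slide 2 only, which makes 6 day 0 arrays. Between 49.0 and 52.7% of spots were well above background on the day 7 arrays, against 51.2 and 54.1% on the slide 1 arrays of day 0 and 39.4 to 42.9% on those of slide 2. On the second principal component (21.4% of the variance) the day 7 arrays scored 17.6 to 38.0 and the 6 day 0 arrays -18.2 to -13.0. The first component (35.4%) set the slide 1 arrays of day 0 apart, as the day 7 arrays scored -14.8 to 9.40, those arrays -42.2 and -39.3, and the day 0 arrays of slide 2 -0.551 to 11. The summed level of 10 slow and mixed fibre markers, in units of the 75th percentile, was 8820 to 9640 in the day 7 samples and 8920 to 9890 in the day 0 samples, and all 10 were above background at both days.

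Of 22145 features tested, 14107 of them named genes, 5263 passed at day 7 against day 0 (limma, Benjamini-Hochberg adjusted p under 0.05). Higher at day 7 were 3458 features (15.6%), 259 of them at least 2-fold, and lower were 1805 (8.15%), 436 of them at least 2-fold. The median of all features was 0.09, so the changes are relative to a point near 0. Under scaling to the median of each array in place of the 75th percentile, that median was 0.22 and the split was 4089 higher and 826 lower. The model corrects for the slide with the day 0 RNA run on both slides, and every one of the 5263 features kept its direction in the plain difference between the 3 day 7 arrays and the 2 day 0 arrays of slide 1. That follows closely from how the correction works. All 3 day 7 arrays lay beyond both slide 1 arrays of day 0 for 5247 of them. The features were chosen by their difference in a fit that uses these same arrays, so this count is no separate check.

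Set against the 4 day 0 arrays of slide 2 alone, 655 of the 5263 features turned sign, and the split was 1652 higher and 2226 lower. Day and slide cannot be told apart in that comparison. A narrower set of 729 features (3.29% of those tested, 583 higher and 146 lower) passed in the same direction in the full model, within slide 1, and with day 0 represented by slide 2 only, and passing "all 3 slide treatments" refers to these. Single RNA samples moved the count. Without day 0 sample 2, one of the pair that was run on both slides, 107 features passed, 52 higher and 55 lower, and without day 0 sample 1, the other of the pair, 2616 passed. Without day 7 sample 1 the count was 3327 and without day 7 sample 2 it was 2621. Of 125 genes named by the rules that passed, 109 did not pass without day 0 sample 2, 28 without day 0 sample 1, 21 without day 7 sample 2, 10 without day 7 sample 1 and at most 3 without any other single sample. Adjusted p-values without day 0 sample 2 are therefore given with the genes that passed against day 0. Counts of list members below stand against the 15.6% and 8.15% of all features that were higher and lower. Of the genes named by the rules, 46 had another probe among those kept, and in 11 of them another probe had the opposite sign, which also passed in 4.

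**Figure D1:**
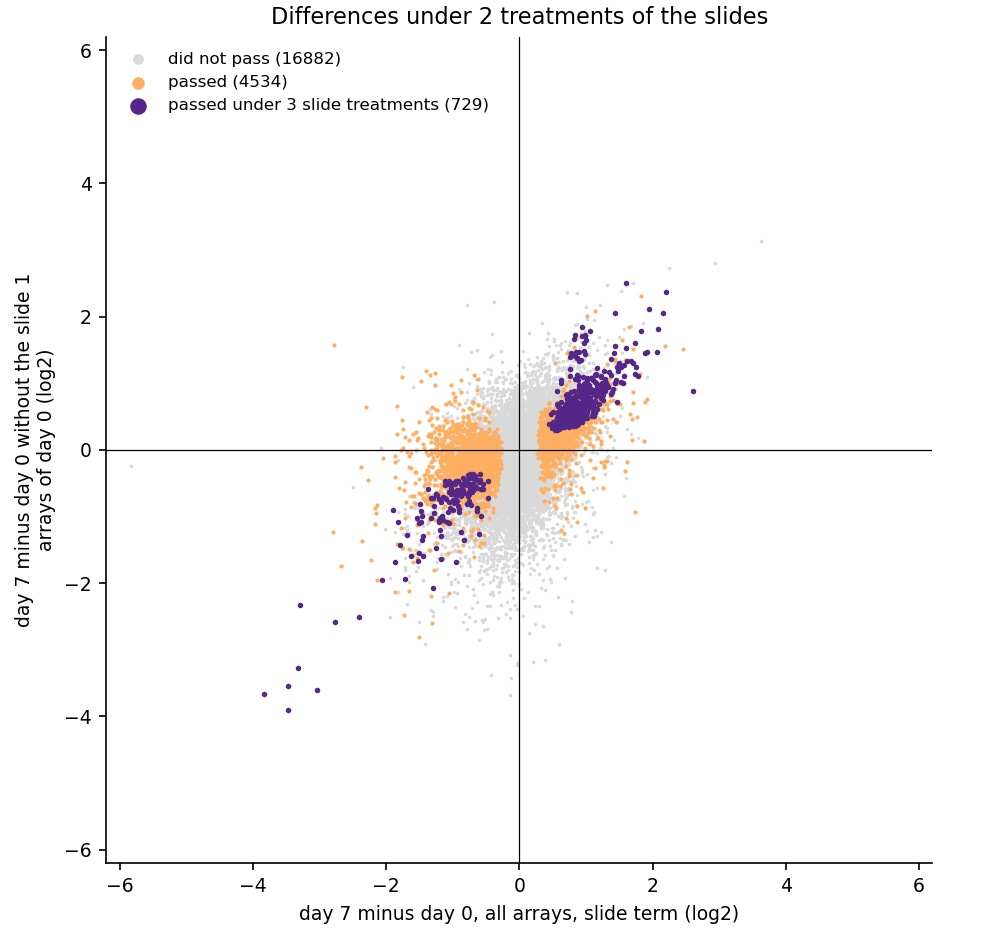
Difference between day 7 and day 0 for each of 22145 features (points) on the log2 scale, with all arrays and a slide term on the horizontal axis and without the slide 1 arrays of day 0 on the vertical axis. The 729 features that passed all 3 slide treatments lie in the upper right and lower left, and the 655 features that turned sign lie in the other quadrants.

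HIF targets changed in both directions. Of 38 targets measured, 8 were higher and 5 lower (21.1% and 13.2%, against 15.6% and 8.15% of all features), and their median difference was 0.15, against 0.09 for all features. The targets that passed all 3 slide treatments were Pfkfb3, Pfkfb4 and Vldlr, which were higher, and Tfrc and Ppp1r3c, which were lower. Pfkfb3, which makes the strongest activator of phosphofructokinase, had levels of 2.56, 2.42 and 3.22 in the day 7 samples, against 1.09, 1.63, 1.27 and 0.87 in the day 0 samples after slide adjustment. All 3 day 7 samples were above all 4 day 0 samples, and the difference was 1.49 ± 0.34 (SE, here and for all such values, adjusted p = 0.0082), or 2.81-fold with a 95% interval of 1.7 to 4.64. It was 1.41 against the slide 1 arrays of day 0, which lay at 1.03 and 1.60. Pfkfb4, a second enzyme of the same family, lay at 2.31, 2.36 and 2.40 at day 7, against 1.75, 1.52, 1.69 and 1.59 at day 0, and rose by 0.72 ± 0.15 (adjusted p = 0.0055, 0.72 within slide 1). Vldlr, a receptor for triglyceride-rich lipoproteins, lay at 5.79, 5.67 and 5.61 at day 7, against 4.65, 4.48, 4.48 and 4.77 at day 0, without overlap, and rose by 1.1 ± 0.15 (adjusted p = 0.00176, 1.12 within slide 1), although another probe for it had 0.42 and did not pass (adjusted p = 0.204).

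Ankrd37, an ankyrin repeat gene long used as a reporter of HIF, lay at 0.90, 1.11 and 0.67 in the day 7 samples, against 0.24, 0.38, 0.09 and 0.26 in the day 0 samples, and rose by 0.64 ± 0.13 (adjusted p = 0.0062). The difference was 0.60 within slide 1, where it did not pass (adjusted p = 0.0578 in limma), and 0.48 without the slide 1 arrays of day 0. Ldha, which makes the lactate dehydrogenase subunit of fast muscle, differed by 0.50 ± 0.14 (adjusted p = 0.0213), but another probe for it had -0.55 and also passed, and without the slide 1 arrays of day 0 its difference was -0.06. Its adjusted p was 0.238 without day 0 sample 2. The other targets that were higher, given here to complete the list and not by the naming rule, were the mitophagy receptors Bnip3 (0.62 ± 0.19) and Bnip3l (0.57 ± 0.11) and the histone demethylase Kdm3a (0.53 ± 0.16). Each was higher within slide 1 too, by 0.58, 0.57 and 0.47, and none passed without day 0 sample 2 (adjusted p = 0.0791 to 0.179).

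Tfrc, the transferrin receptor that brings iron into cells, lay at 1.65, 1.45 and 1.96 in the day 7 samples, against 3.25, 3.69, 3.40 and 2.82 in the day 0 samples, and fell by 1.63 ± 0.28 (adjusted p = 0.00348), by 1.72 within slide 1. All 3 day 7 samples were below all 4 day 0 samples. Ppp1r3c, which brings protein phosphatase to glycogen and so favours glycogen synthesis, lay at 4.25, 4.10 and 4.21 at day 7, against 5.60, 4.97, 4.71 and 5.61 at day 0, and fell by 1.05 ± 0.25 (adjusted p = 0.0109, -1.08 within slide 1). The day 7 samples were close together and the day 0 samples fell into a higher and a lower pair, of which the lower pair was still above day 7. The collagen lysyl hydroxylases Plod1 (-1.03 ± 0.22) and Plod2 (-0.86 ± 0.28) and the histone demethylase Kdm4b (-0.59 ± 0.14) were the other targets that were lower, again named to complete the list (adjusted p = 0.0762 to 0.232 without day 0 sample 2). The adjusted p of Pfkfb3, Pfkfb4, Vldlr, Ankrd37, Tfrc and Ppp1r3c was 0.0569 to 0.0932 without day 0 sample 2, so none of them passed.

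Vegfa, Pdk1, Slc2a1 and genes of the HIF system itself were among those that did not pass, and their intervals give the range of change the data allow. Vegfa, the main growth factor for blood vessels, differed by -0.11 with a 95% interval of -0.48 to 0.27 (adjusted p = 0.697). Pdk1, the kinase through which HIF restrains pyruvate oxidation, differed by -0.10 (-0.37 to 0.18), and Slc2a1, the glucose transporter of most cells, by 0.10 (-0.35 to 0.54). Of the HIF system itself, Hif1a differed by 0.04 (-0.28 to 0.37), Epas1, which encodes HIF-2 alpha, by 0.22 (-0.17 to 0.60), and Egln3, an oxygen-sensing prolyl hydroxylase and HIF target, by -0.16 (-0.70 to 0.39). Other probes for Epas1 had -0.30 and -0.19 and did not pass either (adjusted p = 0.193 and 0.468 in limma). The upper bounds of these 6 genes were all below the 0.72 fitted for Pfkfb4. That value has its own 95% interval of 0.41 to 1.03, and differences between genes were not tested.

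Of 16 measured genes of the HIF system, 4 were higher and 0 lower (25% and 0%), with a median of 0.15. Egln2, another prolyl hydroxylase, lay at 5.74, 5.78 and 5.61 in the day 7 samples, against 5.19, 5.12, 5.21 and 5.04 in the day 0 samples, and rose by 0.57 ± 0.10 (adjusted p = 0.00352, 0.56 within slide 1), but a second probe for it had -0.57 and passed in the other direction. Vhl, the von Hippel-Lindau gene, rose by 0.56 ± 0.16 (adjusted p = 0.0245, 0.61 within slide 1 and 0.15 without the slide 1 arrays of day 0). Neither passed without day 0 sample 2 (adjusted p = 0.0686 to 0.186).

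**Figure D2:**
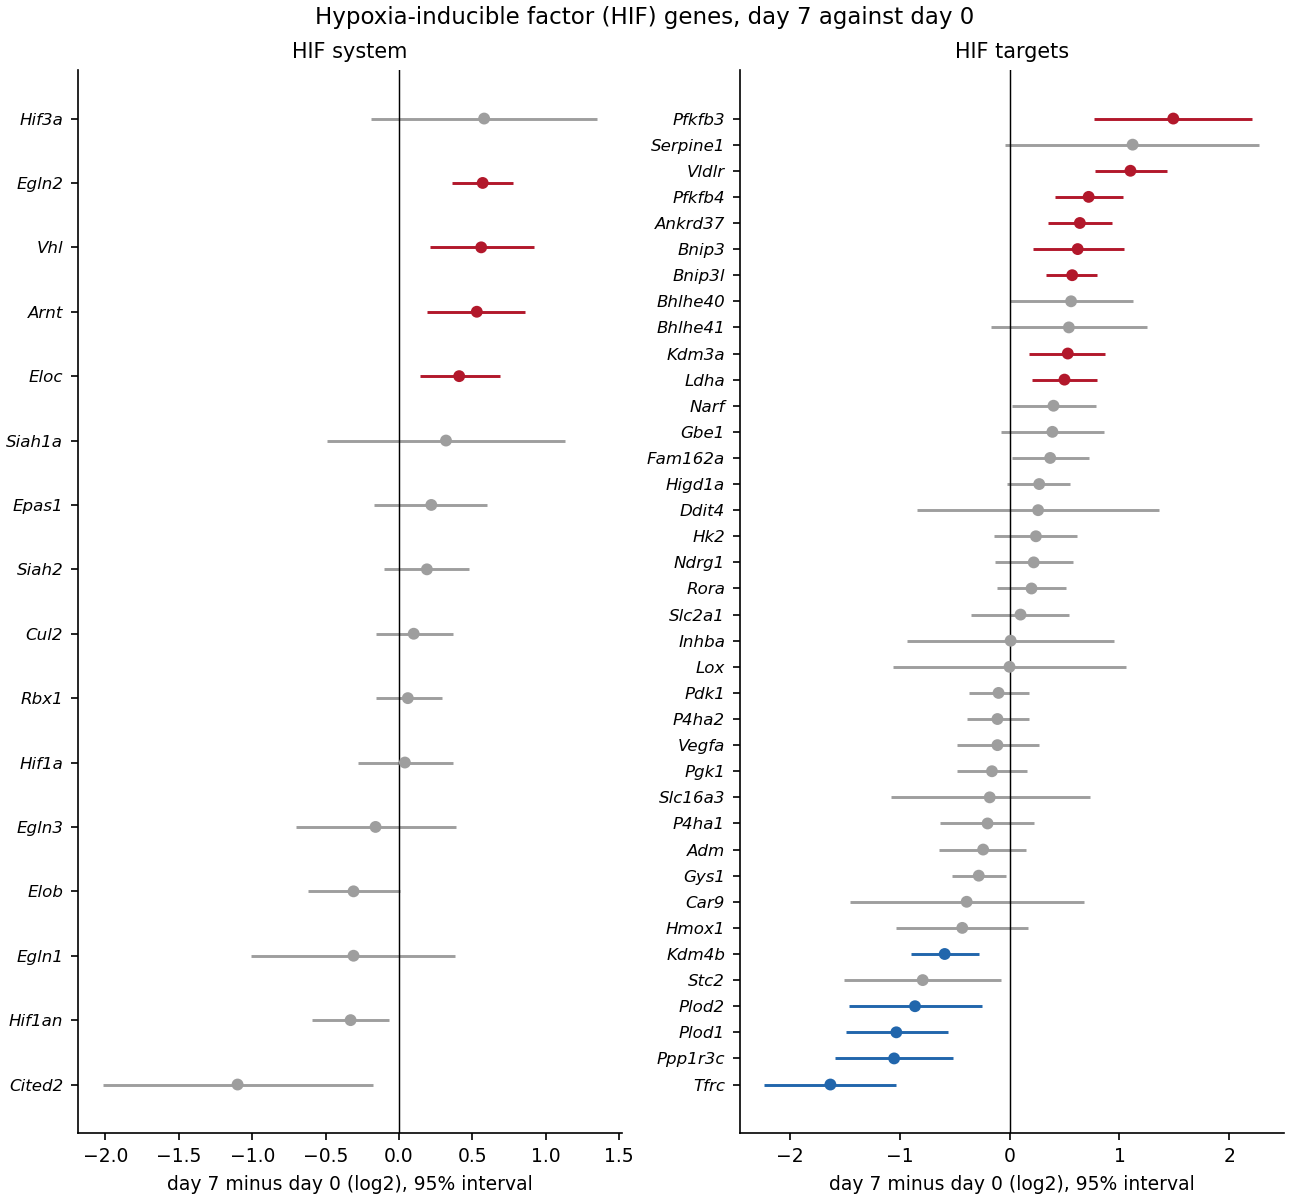
Difference between day 7 and day 0 (log2, horizontal axis) for the genes of the HIF system and the HIF targets, with 95% intervals as lines, members of both lists drawn once under the system, red for higher, blue for lower and grey for genes that did not pass. Pfkfb3 leads the targets at 1.49 and Tfrc is last at -1.63, and Vegfa, Pdk1, Slc2a1 and Hif1a lie near 0.

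Enzymes of glucose and pyruvate use changed in both directions. Of 27 genes of glycolysis and lactate handling, 6 were higher and 6 lower (median -0.08). Of 33 genes of pyruvate entry and the citric acid cycle, 8 were higher and 1 lower (median 0.20). Pdp1, the phosphatase that switches pyruvate dehydrogenase on, lay at 3.46, 3.21 and 3.12 in the day 7 samples, against 1.85, 1.83, 1.82 and 1.95 in the day 0 samples. The day 0 samples were close together and far below day 7, and the gene rose by 1.4 ± 0.18 (adjusted p = 0.00163), or 2.64-fold, with 1.41 within slide 1. It passed all 3 slide treatments and also without day 0 sample 2 (adjusted p = 0.0451). Pdk4, a kinase that switches the same enzyme off and is high in fasting, lay at 8.19, 8.41 and 8.27 at day 7, against 7.12, 6.54, 7.45 and 7.55 at day 0, and rose by 1.18 ± 0.34 (adjusted p = 0.0249, 1.35 within slide 1, 0.59 without the slide 1 arrays of day 0). Me1, the cytosolic malic enzyme, rose by 0.68 ± 0.11 (adjusted p = 0.00301, 0.68 within slide 1) and passed all 3 slide treatments, while 2 other probes for it had 0.12 and 0.23 and did not pass (adjusted p = 0.512 and 0.17). Slc2a4, the insulin-regulated glucose transporter of muscle, differed by 0.00 (-0.29 to 0.29) and did not pass. Pfkl, the liver-type phosphofructokinase, fell by 1.52 ± 0.31 in the full model, and its difference was 0.18 without the slide 1 arrays of day 0 (without day 0 sample 2, adjusted p = 0.0924).

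Genes of glycogen metabolism were more often higher than lower. Of 20 glycogen genes 7 were higher and 1, Ppp1r3c, was lower, with a median of 0.32. Pgm1, phosphoglucomutase, which links glucose 1-phosphate with glycolysis, lay at 7.54, 7.61 and 7.52 in the day 7 samples, against 6.84, 6.61, 6.67 and 6.97 in the day 0 samples, and rose by 0.79 ± 0.13 (adjusted p = 0.00325, 0.81 within slide 1). Its lowest day 7 sample was above the highest day 0 sample, and it passed all 3 slide treatments. Ppp1r3d, another glycogen-targeting subunit, rose by 0.98 ± 0.24 (adjusted p = 0.0129, 1.02 within slide 1), but did not pass without the slide 1 arrays of day 0 (0.48). With day 0 sample 2 left out, the adjusted p of Me1, Pgm1, Ppp1r3d and Pdk4 was 0.0669 to 0.198.

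Of 34 genes of the insulin and insulin-like growth factor system, 7 were higher and 4 lower (20.6% and 11.8%, near the shares of all features), with a median of 0.06. Tbc1d4, which encodes AS160, the insulin-regulated brake on glucose transporter traffic, lay at 3.46, 3.54 and 2.98 in the day 7 samples, against 2.23, 2.22, 2.21 and 2.56 in the day 0 samples, and rose by 1.03 ± 0.21 (adjusted p = 0.00556, 1.08 within slide 1), although another probe for it had -0.05. Grb14, an adaptor that dampens the insulin receptor, lay at 3.75, 3.83 and 3.45 at day 7, against 2.55, 2.69, 2.36 and 3.20 at day 0, and rose by 0.99 ± 0.21 (adjusted p = 0.00692, 1.03 within slide 1). Rps6kb1, the S6 kinase downstream of mTOR, rose by 0.87 ± 0.17 (adjusted p = 0.00481, 0.89 within slide 1), with another probe at -0.04. Igfbp2, which binds insulin-like growth factors outside the cell, lay at -1.69, -2.19 and -2.23 at day 7, against -0.86, -0.48, -0.97 and -0.60 at day 0, and fell by 1.32 ± 0.28 (adjusted p = 0.0062, -1.35 within slide 1). These 4 genes passed all 3 slide treatments, and their adjusted p without day 0 sample 2 was 0.0769 to 0.106.

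Gpam, the mitochondrial enzyme that starts triglyceride synthesis, changed with little spread among the day 7 samples. Its level was 0.45, 0.42 and 0.46 in the day 7 samples, against -0.77, -0.67, -0.82 and -0.98 in the day 0 samples, so the day 7 samples were within 0.1 of each other. It rose by 1.24 ± 0.15 (adjusted p = 0.00142), or 2.36-fold, with 1.19 within slide 1, and passed all 3 slide treatments and without day 0 sample 2 (adjusted p = 0.00819). G0s2, an inhibitor of triglyceride breakdown, lay at 2.51, 1.57 and 2.33 at day 7, against 3.66, 2.96, 3.02 and 3.45 at day 0, and fell by 1.14 ± 0.31 (adjusted p = 0.0187, -1.16 within slide 1). Of 24 lipid droplet and triglyceride genes 3 were higher and 2 lower (12.5% and 8.33%, near the shares of all features, median 0.02). Of 42 genes for the uptake and oxidation of fatty acids, 15 were higher and 2 lower, with a median of 0.55, the highest median among the lists of fuel metabolism. Decr1, an enzyme for the oxidation of unsaturated fatty acids, lay at 7.26, 7.35 and 6.85 at day 7, against 6.10, 5.99, 6.02 and 6.23 at day 0, and rose by 1.08 ± 0.24 (adjusted p = 0.0076, 1.1 within slide 1), while another probe had 0.46 and did not pass (adjusted p = 0.188). The 2 members that were lower were Acsl5 (-0.48 ± 0.11), an acyl-CoA synthetase, and Slc27a4 (-0.52 ± 0.17), a fatty acid transporter, and both were close to 0 without the slide 1 arrays of day 0 (0.00 and -0.07). Their adjusted p without day 0 sample 2 was 0.124 to 0.152. Neither G0s2 nor any member of the fatty acid oxidation list passed all 3 slide treatments.

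**Figure D3:**
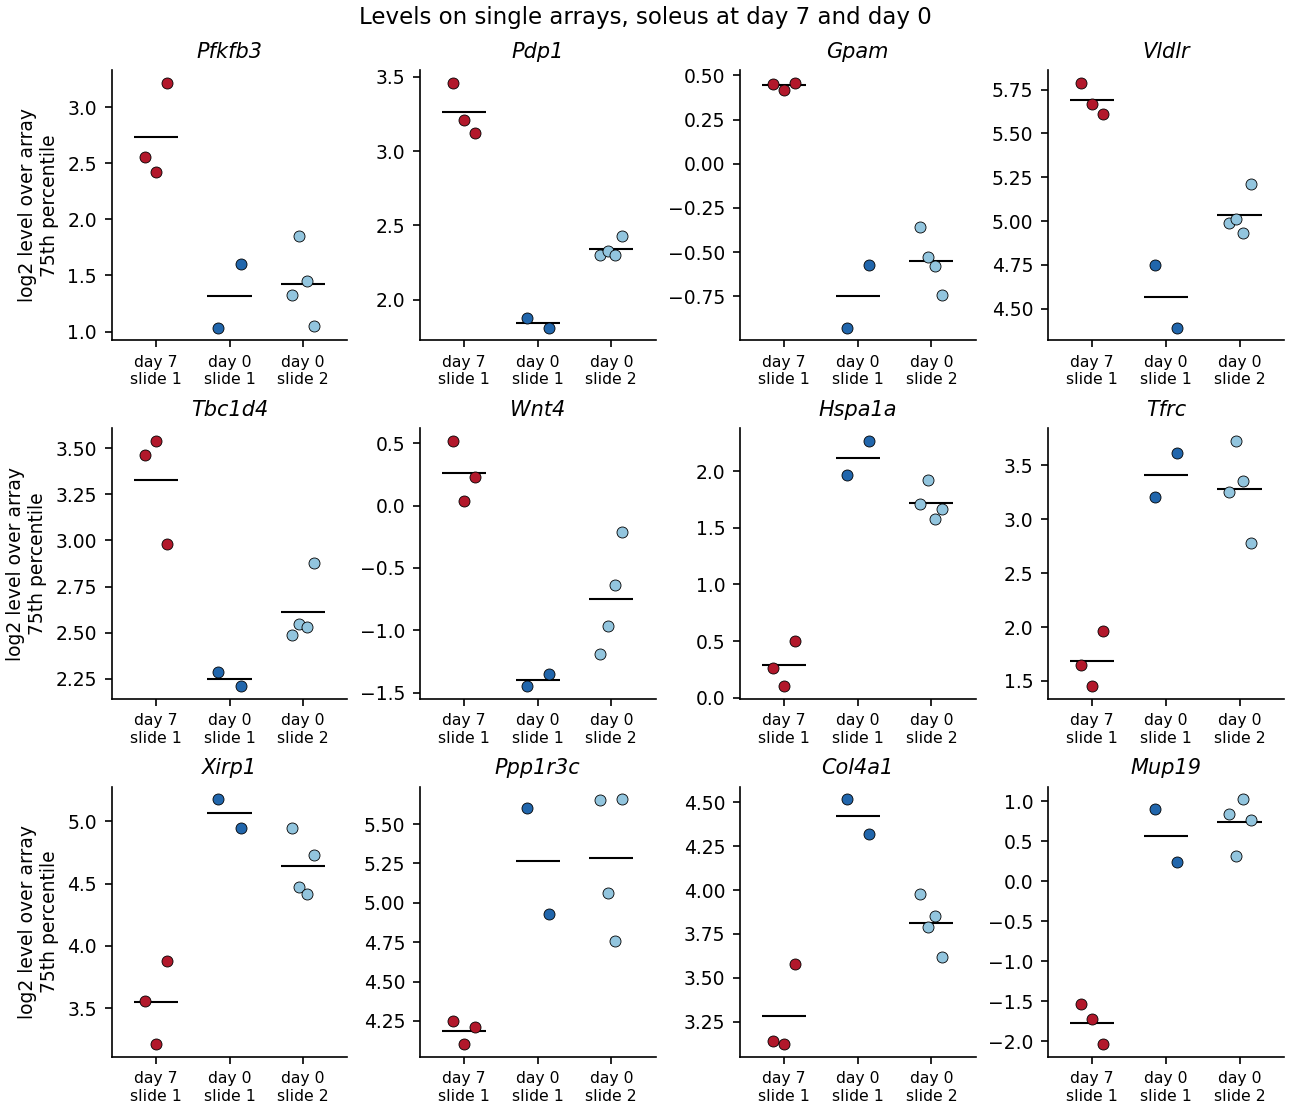
Levels of 12 genes (log2 over the 75th percentile of the array, vertical axes) on the 3 day 7 arrays, the 2 day 0 arrays of slide 1 and the 4 day 0 arrays of slide 2, with a point per array and a line at the mean. In each of these genes the 3 day 7 arrays lie on the same side of all 6 day 0 arrays, for example at 0.26, 0.10 and 0.50 for Hspa1a, against 1.97 and 2.27 on the slide 1 arrays of day 0.

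Subunits of the respiratory chain were more often higher than lower, by small amounts. Of 37 complex I subunits 13 were higher and 0 lower (median 0.35), of 14 in complexes II and III 5 were higher and 0 lower (median 0.37), of 16 in complex IV 7 were higher and 1 lower (median 0.34), and of 15 of the ATP synthase 7 were higher and 0 lower (median 0.40). The medians within slide 1 were 0.35, 0.38, 0.36 and 0.41, and without the slide 1 arrays of day 0 they were 0.15, 0.22, 0.15 and 0.18. Atp5l, subunit g of the ATP synthase, lay at 8.95, 9.09 and 8.69 in the day 7 samples, against 8.07, 7.92, 7.95 and 8.04 in the day 0 samples, and rose by 0.91 ± 0.14 (adjusted p = 0.0024, 0.91 within slide 1). It was the single member of these 4 lists to pass all 3 slide treatments. Ndufb4 of complex I rose by 0.82 ± 0.16 (adjusted p = 0.00468, 0.84 within slide 1), Uqcrfs1, the Rieske protein of complex III, by 0.75 ± 0.24 (adjusted p = 0.0408, 0.76 within slide 1), and Cox6c of complex IV by 0.71 ± 0.17 (adjusted p = 0.0121, 0.70 within slide 1). Cox4i2, the oxygen-regulated isoform of a complex IV subunit, lay at 0.79, 0.41 and 0.62 at day 7, against 1.08, 1.09, 1.18 and 1.26 at day 0, and fell by 0.54 ± 0.15 (adjusted p = 0.0235, -0.50 within slide 1). It was the complex IV member that was lower.

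Vdac1, the pore of the outer membrane, rose by 0.84 ± 0.18 (adjusted p = 0.00612, 0.85 within slide 1). Dnajc19, a chaperone of the import motor, lay at 3.93, 4.01 and 3.51 in the day 7 samples, against 2.89, 2.85, 2.86 and 3.03 in the day 0 samples, and rose by 0.92 ± 0.18 (adjusted p = 0.00451, 0.94 within slide 1), while another probe had 0.21 and did not pass (adjusted p = 0.41). Of 75 mitochondrial ribosome genes 16 were higher and 8 lower (21.3% and 10.7%, median 0.12), with Mrps18c at 0.82 ± 0.14 and Mrpl38 at -1.0 ± 0.19, which were 0.81 and -0.98 within slide 1. Dnajc19, Mrps18c and Mrpl38 passed all 3 slide treatments. Ppargc1a, the coactivator that drives mitochondrial biogenesis, differed by 0.21 (-0.57 to 0.99) and did not pass. For Atp5l, Ndufb4, Uqcrfs1, Cox6c, Cox4i2, Decr1, G0s2, Vdac1, Dnajc19, Mrps18c and Mrpl38, the adjusted p was 0.0659 to 0.24 without day 0 sample 2.

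Ribosomal protein and proteasome genes were more often higher than lower. Cytosolic ribosomal proteins had 39 of 80 members higher and 0 lower, with a median of 0.38 (0.40 within slide 1 and 0.16 without the slide 1 arrays of day 0). Under all 3 slide treatments 3 passed: Rpl4 at 0.76 ± 0.14, Rpl36a at 0.78 ± 0.14 and Rpl36al at 0.70 ± 0.12. Rpl36a and Rpl36al are nearly identical relatives, so their values are uncertain as separate measurements. Rpl4 lay at 6.96, 7.05 and 6.61 in the day 7 samples, against 6.19, 6.05, 6.06 and 6.18 in the day 0 samples (adjusted p = 0.00381 in the full model, 0.76 within slide 1). Of 51 translation factors 13 were higher and 6 lower (median 0.08). Eif2s2, the beta subunit of initiation factor eIF2, rose by 0.74 ± 0.15 (adjusted p = 0.0054, 0.78 within slide 1) and passed all 3 slide treatments. Eef1a2, the elongation factor of mature muscle, fell by 1.33 ± 0.30 in the full model, but its difference was 0.47 without the slide 1 arrays of day 0 (without day 0 sample 2, adjusted p = 0.0977).

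Of 32 proteasome subunits 14 were higher and 1 lower, with a median of 0.22. Psmd1, a scaffold of the regulatory particle, lay at 5.61, 5.78 and 5.48 in the day 7 samples, against 5.02, 4.89, 4.98 and 4.91 in the day 0 samples, and rose by 0.67 ± 0.11 (adjusted p = 0.00336, 0.67 within slide 1). Npm1, a nucleolar chaperone of ribosome assembly, rose by 0.77 ± 0.15 (adjusted p = 0.00448, 0.79 within slide 1), but 4 other probes for it had 0.01 to 0.31 and did not pass (adjusted p = 0.136 to 0.988). The tRNA synthetases Cars and Lars rose by 0.68 ± 0.12 and 0.61 ± 0.15 (0.68 and 0.67 within slide 1). All 4 passed all 3 slide treatments. Without day 0 sample 2 the adjusted p of Rpl4, Rpl36a, Rpl36al, Eif2s2, Psmd1, Npm1, Cars and Lars was 0.0617 to 0.105.

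Of 41 RNA-binding proteins of the cold-shock and splicing groups 16 were higher and 1 lower, and the median was 0.39. Rbfox1, a splicing regulator of muscle and neurons, lay at 5.32, 5.27 and 5.07 in the day 7 samples, against 4.27, 4.21, 4.28 and 4.45 in the day 0 samples, and rose by 0.93 ± 0.12 (adjusted p = 0.0016, 0.96 within slide 1), also without day 0 sample 2 (adjusted p = 0.0451). The cold-inducible genes Rbm3 and Cirbp, which mark mild cooling and other stress, both rose by the brightest probe of each. Rbm3 lay at 4.50, 4.41 and 4.55 at day 7, against 3.55, 3.50, 3.71 and 3.53 at day 0 (0.92 ± 0.14, adjusted p = 0.00227, 0.94 within slide 1), but its 2 other probes had 0.01 and 0.44 and did not pass (adjusted p = 0.996 and 0.0671). Cirbp lay at 4.47, 4.21 and 4.17 at day 7, against 3.63, 3.69, 3.64 and 3.71 at day 0 (0.62 ± 0.11, adjusted p = 0.00352, 0.62 within slide 1). Rbfox1, Rbm3, Cirbp and Pnn, a splicing factor of nuclear speckles (0.73 ± 0.16), passed all 3 slide treatments. U2af2, a core splicing factor, was the member that fell (-1.09 ± 0.23, -0.09 without the slide 1 arrays of day 0, and adjusted p = 0.115 without day 0 sample 2), and another probe for it had -0.76 and did not pass (adjusted p = 0.245). The adjusted p of Rbm3, Cirbp and Pnn was 0.0637 to 0.0808 without day 0 sample 2.

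Heat shock proteins and Z-disc genes were more often lower than higher. Of 42 heat shock proteins and co-chaperones 12 were lower and 6 higher (median -0.16). Hspa1a, the stress-induced HSP70, lay at 0.26, 0.10 and 0.50 in the day 7 samples, against 2.02, 2.27, 1.94 and 2.04 in the day 0 samples. The gap between the groups was wider than the spread within either, and the gene fell by 1.79 ± 0.17 (adjusted p = 0.000471), with -1.84 within slide 1 and -1.43 without the slide 1 arrays of day 0. It also passed without day 0 sample 2 (adjusted p = 0.0148). Hspa1a has a near-identical neighbour copy, so its probe may read both. Hspa1l, an HSP70 relative in the same gene cluster, lay at 2.22, 1.82 and 2.07 at day 7, against 3.06, 3.09, 2.99 and 3.07 at day 0, and fell by 1.02 ± 0.12 (adjusted p = 0.00142, -1.03 within slide 1, and adjusted p = 0.0433 without day 0 sample 2). Hspb7, a small heat shock protein of heart and skeletal muscle, lay at 5.63, 5.40 and 5.95 at day 7, against 7.09, 7.16, 6.81 and 6.65 at day 0, and fell by 1.30 ± 0.20 (adjusted p = 0.00227, -1.4 within slide 1). Hsph1 and Dnajb4, partners of HSP70, fell by 0.58 ± 0.13 and 0.57 ± 0.12 (-0.60 and -0.59 within slide 1). The co-chaperones Sugt1 and Dnajb6 rose by 0.78 ± 0.15 and 0.68 ± 0.14 (0.76 and 0.70 within slide 1), and of 3 other Dnajb6 probes 2 passed and 1, at 0.06, did not. These 7 genes passed all 3 slide treatments.

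Of 39 genes of the Z-disc, titin and costameres 11 were lower and 5 higher (median -0.32, and -0.12 without the slide 1 arrays of day 0). Xirp1, an actin-binding protein of the intercalated and Z-disc regions that responds to load and injury, lay at 3.56, 3.21 and 3.88 in the day 7 samples, against 5.26, 4.90, 4.81 and 5.12 in the day 0 samples, and fell by 1.48 ± 0.25 (adjusted p = 0.00336, -1.51 within slide 1). Ankrd2, a stretch-responsive partner of titin in slow fibres, lay at 7.69, 7.62 and 7.6 at day 7, against 9.11, 8.84, 8.58 and 8.93 at day 0, and fell by 1.25 ± 0.15 (adjusted p = 0.00142, -1.30 within slide 1, and adjusted p = 0.0361 without day 0 sample 2). The day 7 samples were within 0.1 of each other and far below every day 0 sample. Synpo2 and Pdlim5, Z-disc adaptors, fell by 1.20 ± 0.27 and 0.73 ± 0.16 (-1.29 and -0.74 within slide 1), although each had another probe near 0. Sgcb, beta-sarcoglycan of the dystrophin complex, rose by 0.78 ± 0.15 (adjusted p = 0.00448, 0.75 within slide 1). All 5 passed all 3 slide treatments. With day 0 sample 2 left out, the adjusted p of Hspb7, Hsph1, Dnajb4, Sugt1, Dnajb6, Xirp1, Synpo2, Pdlim5 and Sgcb was 0.0603 to 0.0954.

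The myosins that define the soleus did not pass. Myh7, the slow myosin, lay at 10.51, 10.62 and 10.35 in the day 7 samples, against 10.36, 10.38, 10.33 and 10.31 in the day 0 samples, a difference of 0.15 (-0.10 to 0.39). Myh2, the myosin of type IIa fibres, differed by 0.18 (-0.16 to 0.51), and Mb, myoglobin, by -0.12 (-0.43 to 0.19). Of 17 slow fibre genes 7 were lower and 1 higher (median -0.28). Ankrd2 and Casq2, the calsequestrin of slow muscle (-0.99 ± 0.19, -1.03 within slide 1, adjusted p = 0.00437 and 0.0693 without day 0 sample 2), were the members that passed all 3 slide treatments. Of 17 fast fibre genes 1 was higher and 1 lower (median 0.18). Pvalb, the calcium buffer of fast fibres, lay at 7.76, 7.05 and 8.94 at day 7, against 7.02, 5.80, 6.35 and 5.81 at day 0 (1.65 ± 0.51, adjusted p = 0.0319, 1.56 within slide 1), and another probe for it had 2.03 and passed. It did not pass within slide 1 (adjusted p = 0.116) or without day 0 sample 2 (0.261), day 7 sample 1 (0.0618) or day 7 sample 4 (0.0945). Myh4, the myosin of type IIb fibres, lay at 9.44, 4.31 and 9.83 at day 7, against 5.13, 2.72, 6.69 and 2.62 at day 0, so that 1 of 3 day 7 samples lay within the day 0 range, and did not pass (adjusted p = 0.113). The summed level of 3 fast glycolytic markers was 166 to 1480 in the day 7 samples and 72.5 to 204 in the day 0 samples. In a bulk sample fewer fibres of a type and less RNA per fibre cannot be told apart, and the part of fibre content in any result was not tested.

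Genes of calcium release and excitation changed in both directions. Of 32 measured 8 were higher and 10 lower (25% and 31.2%, against 15.6% and 8.15% of all features), with a median of -0.15 that was 0.04 without the slide 1 arrays of day 0, and 3 passed all 3 slide treatments. Sypl2, a protein of the triad junction, lay at 2.24, 1.78 and 2.48 in the day 7 samples, against 3.32, 3.29, 3.16 and 3.21 in the day 0 samples, and fell by 1.09 ± 0.19 (adjusted p = 0.00355, -1.12 within slide 1, -0.29 without the slide 1 arrays of day 0). Casq1, the calsequestrin of fast fibres, fell by 0.86 ± 0.19 (adjusted p = 0.0077, -0.90 within slide 1, -0.22 without the slide 1 arrays of day 0). Camk2g, a calcium-calmodulin kinase, lay at 5.42, 5.60 and 5.24 in the day 7 samples, against 4.55, 4.41, 4.45 and 4.63 in the day 0 samples, and rose by 0.92 ± 0.17 (adjusted p = 0.00381, 0.93 within slide 1). Of 20 neuromuscular junction and denervation genes 3 were higher and 3 lower (15% and 15%, median -0.12). Hdac4, the deacetylase that carries nerve activity to synaptic genes, lay at 2.02, 2.0 and 1.98 at day 7, against 1.01, 1.06, 1.25 and 1.45 at day 0, and rose by 0.83 ± 0.18 (adjusted p = 0.00662, 0.92 within slide 1). Its relative Hdac9 rose by 1.4 ± 0.29 (1.52 within slide 1), and Gadd45a, which is induced by denervation, by 0.73 ± 0.24 (0.78 within slide 1). Ache, acetylcholinesterase, fell by 1.32 ± 0.30 and Chrnb1, a subunit of the acetylcholine receptor, by 1.0 ± 0.18, with -0.19 and -0.30 without the slide 1 arrays of day 0. Camk2g, Hdac4 and Gadd45a passed all 3 slide treatments, and Sypl2, Casq1, Hdac9, Ache and Chrnb1 did not. For these 8 genes, the adjusted p was 0.0613 to 0.108 without day 0 sample 2.

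Among atrophy, autophagy and myostatin genes, 14 of 37 were higher and 5 lower (median 0.26). Fbxo32, the muscle ubiquitin ligase atrogin-1, lay at 4.16, 4.02 and 3.63 in the day 7 samples, against 3.18, 3.34, 3.05 and 3.25 in the day 0 samples, and rose by 0.72 ± 0.21 (adjusted p = 0.0272, 0.70 within slide 1). Trim63, the companion ligase MuRF1, differed by 0.00 (-0.45 to 0.46) and did not pass. Acvr2b, the receptor for myostatin and activins, lay at 3.94, 3.73 and 3.38 at day 7, against 2.71, 2.72, 2.75 and 2.77 at day 0, and rose by 0.95 ± 0.21 (adjusted p = 0.00696, 0.96 within slide 1), and was the single member to pass all 3 slide treatments. Mstn, myostatin, a brake on muscle mass, was above background on 2 of 3 day 7 arrays and on none of the 6 day 0 arrays, and was at least 1.06-fold higher (adjusted p = 0.0198). Its day 7 values were -2.73, -3.94 and -0.78, a wide spread. A level of -2.73 would not have been above background on the slide 2 arrays of day 0, where the lowest such level was -2.46 to -2.04. Ctsd, the lysosomal protease cathepsin D, fell by 0.59 ± 0.12 (adjusted p = 0.00615, -0.61 within slide 1).

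Of 49 genes of TGF-beta, BMP and myokine signalling 9 were higher and 3 lower (18.4% and 6.12%, near the shares of all features, median 0.26). Ostn, musclin, a peptide released by muscle, lay at 2.69, 2.56 and 2.75 in the day 7 samples, against 1.58, 1.65, 1.95 and 1.88 in the day 0 samples, and rose by 0.92 ± 0.19 (adjusted p = 0.00561, 1.0 within slide 1). Metrnl, meteorin-like, a myokine that acts on fat and immune cells, lay at 1.85, 2.03 and 1.85 at day 7, against 2.59, 2.82, 2.85 and 2.63 at day 0, and fell by 0.81 ± 0.11 (adjusted p = 0.00186, -0.80 within slide 1). Of 40 Wnt genes 5 were higher and 3 lower (12.5% and 7.5%, near the shares of all features, median 0.20). Wnt4, a secreted ligand, lay at 0.52, 0.04 and 0.23 at day 7, against -1.57, -1.41, -1.14 and -0.72 at day 0, and rose by 1.52 ± 0.25 (adjusted p = 0.00301), or 2.87-fold, with 1.67 within slide 1, but a second probe for it had 0.40 and did not pass (adjusted p = 0.332). Notum, an enzyme that inactivates Wnt ligands, lay at 2.14, 2.06 and 2.19 at day 7, against 2.77, 2.96, 2.68 and 2.71 at day 0, and fell by 0.66 ± 0.13 (adjusted p = 0.00545, -0.71 within slide 1). Ostn, Metrnl, Wnt4 and Notum passed all 3 slide treatments. Without day 0 sample 2 the adjusted p of these 4 genes and of Fbxo32, Acvr2b, Mstn and Ctsd was 0.0613 to 0.191.

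Clock genes passed against day 0 at about the share of all features. The time of day at which muscles were taken is not in the labels, and its part in these values was not tested. Of 22 clock genes 4 were higher and 1 lower than at day 0 (18.2% and 4.55%, against 15.6% and 8.15% of all features, median 0.44). Cry2, a repressor of the clock, lay at 3.75, 4.17 and 3.45 in the day 7 samples, against 2.73, 2.97, 2.66 and 2.70 in the day 0 samples, and rose by 1.01 ± 0.19 (adjusted p = 0.00403, 0.97 within slide 1). Tef, an output transcription factor, lay at 6.48, 6.79 and 6.26 at day 7, against 5.44, 5.61, 5.50 and 5.54 at day 0, and rose by 0.99 ± 0.16 (adjusted p = 0.00307, 0.98 within slide 1). Csnk1d, the kinase that marks period proteins, rose by 0.70 ± 0.13 (0.74 within slide 1), but another probe for it had -0.54 and passed. These 3 passed all 3 slide treatments. Dbp, the output factor with the widest daily swing, lay at 6.16, 6.35 and 5.97 at day 7, against 4.72, 6.05, 5.20 and 4.69 at day 0, and did not pass (adjusted p = 0.061), while a second probe for it had 1.21 and passed (adjusted p = 0.0231). Nr1d1, a clock repressor, was the member that fell (-0.97 ± 0.31), and its difference was 0.79 without the slide 1 arrays of day 0. The adjusted p of Cry2, Tef, Csnk1d and Nr1d1 was 0.0613 to 0.257 without day 0 sample 2.

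Macrophage markers were more often lower than higher at day 7. Of 33 macrophage and monocyte markers 0 were higher and 8 lower (0% and 24.2%, median -0.46, -0.56 within slide 1 and -0.70 without the slide 1 arrays of day 0). Ccl8, a chemokine of resident macrophages, lay at -2.75, -1.89 and -2.37 in the day 7 samples, against -0.60, -0.70, -1.03 and -1.1 in the day 0 samples, and fell by 1.51 ± 0.34 (adjusted p = 0.0078, -1.62 within slide 1), and passed all 3 slide treatments. C1qa, the first complement component made by macrophages, lay at -0.24, -0.25 and 0.01 at day 7, against 1.69, 1.25, 1.45 and 1.43 at day 0, and fell by 1.62 ± 0.36 (adjusted p = 0.00761, -1.62 within slide 1), but did not pass all 3 treatments. The summed level of 3 measured macrophage markers was 9.61 to 11 at day 7 and 11.7 to 16.2 at day 0, while Cd68 and Cd163 were not among the features tested. Of 14 neutrophil and mast cell markers measured 1 was higher and 3 lower (7.14% and 21.4%, median -0.22). S100a9, the calprotectin subunit of neutrophils, lay at -1.46, -1.89 and -2.47 at day 7, against 2.05, 0.77, 0.47 and 2.91 at day 0, and fell by 3.47 ± 0.89 (adjusted p = 0.0145, -3.40 within slide 1). Its partner S100a8 was above background on 1 of 3 day 7 arrays and on all 6 day 0 arrays, and fell by 3.04 ± 0.81 in the fit (adjusted p = 0.0176, -3.03 within slide 1). Both passed all 3 slide treatments, and their summed level was 0.216 to 0.471 at day 7 and 1.62 to 8.85 at day 0. The third that was lower was Lcn2, a lipocalin of neutrophils and stressed tissues (-1.37 ± 0.33, -1.43 within slide 1). Csf3r, the receptor for granulocyte colony-stimulating factor, was higher (0.36 ± 0.11, 0.39 within slide 1). Its levels were 7.53, 7.59 and 7.3 at day 7, against 7.15, 6.99, 7.17 and 7.15 at day 0. These were far above those of S100a9 at both days, and whether neutrophils are the source was not tested. Csf3r missed the cut in limma on slide 1 alone (adjusted p = 0.119). It also did so with day 0 taken from slide 2 only (0.11, adjusted p = 0.434). Ly6g and Ngp were not among the features tested. Of the 20 lymphocyte and antigen presentation genes measured 0 were higher and 0 lower, with a median of -0.30. With day 0 sample 2 left out, the adjusted p of Ccl8, C1qa, S100a9, S100a8, Lcn2 and Csf3r was 0.0456 to 0.289.

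Transcripts of the major urinary proteins, lipocalins that the mouse liver secretes, were lower at day 7, where several were near background. Of 14 measured genes of the major urinary protein and liver list 7 were lower and 0 higher (median -0.72), and 5 of them, all of the Mup family, passed all 3 slide treatments. Mup1 was above background on all 6 day 0 arrays and on no day 7 array, and was at least 7.10-fold lower (adjusted p = 0.00186, and 0.0451 without day 0 sample 2). Mup19 was measured on every array, lay at -1.54, -1.72 and -2.04 in the day 7 samples, against 0.82, 0.23, 0.93 and 0.67 in the day 0 samples, and fell by 2.41 ± 0.37 (adjusted p = 0.00227, -2.33 within slide 1, and adjusted p = 0.0433 without day 0 sample 2). Mup17 and Mup18, above background on 1 of 3 day 7 arrays each, fell by 3.48 ± 0.65 and 3.32 ± 0.56 in the fit (-3.48 and -3.20 within slide 1). Mup20, above background on 2 of the 6 day 0 arrays and on no day 7 array, was at least 1.4-fold lower (adjusted p = 0.00506). The adjusted p of Mup17, Mup18 and Mup20 was 0.0572 to 0.0669 without day 0 sample 2. These genes are nearly identical in sequence, so their probes may read a common signal. Alb, the albumin gene, was not among the features tested.

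Vessel genes passed in both directions, and the angiogenic genes did so at about the share of all features. Of 36 endothelial markers 7 were higher and 6 lower (19.4% and 16.7%, median 0.15), and the summed level of 3 endothelial markers was 22.7 to 24.3 in the day 7 samples and 20.3 to 21.7 in the day 0 samples. Egfl7, a factor secreted by endothelium, lay at 6.81, 6.81 and 6.69 at day 7, against 5.89, 6.26, 6.19 and 6.06 at day 0, and rose by 0.67 ± 0.15 (adjusted p = 0.00733, 0.69 within slide 1). Eng, endoglin, a TGF-beta co-receptor of endothelium, lay at 1.94, 2.02 and 2.13 at day 7, against 3.07, 3.35, 2.89 and 2.91 at day 0, and fell by 1.05 ± 0.16 (adjusted p = 0.00212, -1.13 within slide 1). Of 39 angiogenic ligands and receptors 5 were higher and 3 lower (12.8% and 7.69%, median 0.10). The angiopoietins Angpt1 and Angpt2, which steady and loosen vessels through the receptor Tie2, rose by 1.07 ± 0.21 and 0.95 ± 0.25 (1.1 and 0.99 within slide 1, adjusted p = 0.00497 and 0.0152). Angpt2 lay at -0.53, -0.22 and -0.59 at day 7, against -1.44, -1.46, -1.29 and -1.36 at day 0. The pericyte gene Higd1b and Rgs4, a regulator of G protein signals in mural cells, rose by 0.73 ± 0.13 and 0.58 ± 0.15 (0.75 and 0.64 within slide 1). Acta2, smooth muscle actin, fell by 0.83 ± 0.17 (-0.83 within slide 1, adjusted p = 0.00617). Egfl7, Eng, Angpt2, Higd1b, Rgs4 and Acta2 passed all 3 slide treatments, and Angpt1 did not (0.55 without the slide 1 arrays of day 0).

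Of 50 matrix and fibroblast genes 8 were lower and 2 higher (median -0.27). Col4a1, a chain of basement membrane collagen, lay at 3.14, 3.12 and 3.58 in the day 7 samples, against 4.54, 4.34, 4.43 and 4.19 in the day 0 samples, and fell by 1.11 ± 0.15 (adjusted p = 0.00178, -1.14 within slide 1, and adjusted p = 0.0433 without day 0 sample 2). It was the matrix member that passed all 3 slide treatments. Eln, elastin, fell by 2.14 ± 0.38 (adjusted p = 0.0037, -2.16 within slide 1), and Dcn, decorin, a small proteoglycan of fibroblasts, rose by 0.62 ± 0.19 (adjusted p = 0.0277, 0.64 within slide 1), and neither passed all 3 treatments. The summed level of 3 fibroblast markers was 209 to 338 at day 7 and 146 to 274 at day 0. For Egfl7, Eng, Angpt1, Angpt2, Higd1b, Rgs4, Acta2, Eln and Dcn, the adjusted p was 0.0585 to 0.291 without day 0 sample 2.

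Hba-a1, an alpha globin gene, lay at 7.37, 7.04 and 6.85 in the day 7 samples, against 7.14, 7.41, 7.66 and 7.36 in the day 0 samples, a difference of -0.29 (-0.93 to 0.35). Of 18 myoglobin, globin and erythroid genes 0 were higher and 3 lower (median -0.13). Hbb-b1, a beta globin gene, was lower by 1.59 ± 0.32 in the full model but at 0.23 without the slide 1 arrays of day 0 (without day 0 sample 2, adjusted p = 0.0861). Globin genes are nearly identical copies, so their probes may share signal. Of 32 iron and haem genes 5 were higher and 4 lower (15.6% and 12.5%, near the shares of all features, median -0.06), and Tfrc was the member that passed all 3 slide treatments. Car3, the carbonic anhydrase of slow muscle and fat, lay at 8.46, 8.28 and 8.42 at day 7, against 7.68, 7.59, 7.81 and 7.61 at day 0, and rose by 0.72 ± 0.15 (adjusted p = 0.00575, 0.74 within slide 1). Amd2, S-adenosylmethionine decarboxylase of the polyamine pathway, lay at 4.76, 4.60 and 5.24 at day 7, against 3.80, 3.31, 3.50 and 3.93 at day 0, and rose by 1.25 ± 0.20 (adjusted p = 0.00288, 1.29 within slide 1). Car3 and Amd2 passed all 3 slide treatments, and their adjusted p without day 0 sample 2 was 0.0652 to 0.0938.

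Several of the largest rises were in genes close to background. Fam227b was above background on all 3 day 7 arrays and on no day 0 array (adjusted p = 0.00142, and 0.0329 without day 0 sample 2), and its bound gives no fold. The lowest level above background was -3.64 to -3.35 on the day 7 arrays, but -2.46 to -2.04 on the slide 2 arrays of day 0. The day 7 levels of Fam227b, -2.88, -2.97 and -3.07, would not have reached that range on slide 2. On the slide 1 arrays of day 0 it lay at -5.94 and -5.41. Slc22a2, a transporter of organic cations, was above background on all 3 day 7 arrays and on no day 0 array, and was at least 1.56-fold higher (adjusted p = 0.00657). Cdyl2, a chromodomain protein, and Pla2g5, a secreted phospholipase, had the same pattern and were at least 1.36-fold and 1.22-fold higher (adjusted p = 0.0117 and 0.00657). The lowest day 7 levels of Slc22a2, Cdyl2 and Pla2g5 were -2.53, -2.53 and -2.95, which are also below that range on slide 2. Tspan8, a membrane tetraspanin, lay at -0.33, 0.05 and -0.28 at day 7, against -1.52, -3.45, -2.53 and -1.69 at day 0, and was above background on 3 of 6 day 0 arrays (2.15 ± 0.61, adjusted p = 0.0225). Pcm1, a scaffold of the centrosome, lay at 3.04, 3.27 and 2.78 at day 7, against 1.30, 1.49, 1.13 and 1.32 at day 0, and rose by 1.71 ± 0.16 (adjusted p = 0.000471), but another of its probes had -1.39 and passed in the other direction. Among the largest falls beside the Mup and S100a genes, Ces2c, a carboxylesterase, lay at -1.46, -1.31 and -2.24 at day 7, against 0.32, 0.68, 0.06 and 0.47 at day 0, and fell by 2.07 ± 0.34 (adjusted p = 0.00324, -2.13 within slide 1). These 7 genes passed all 3 slide treatments. Itga5, an integrin of fibronectin, and Actn1, a non-muscle actinin, fell by 2.30 ± 0.41 and 1.83 ± 0.49 in the full model, while their differences were 0.64 and 0.66 without the slide 1 arrays of day 0. Both were above background on 3 of the 6 day 0 arrays. Without day 0 sample 2 the adjusted p was 0.00641 for Pcm1 and 0.0617 to 0.159 for the others named here.

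**Figure D4:**
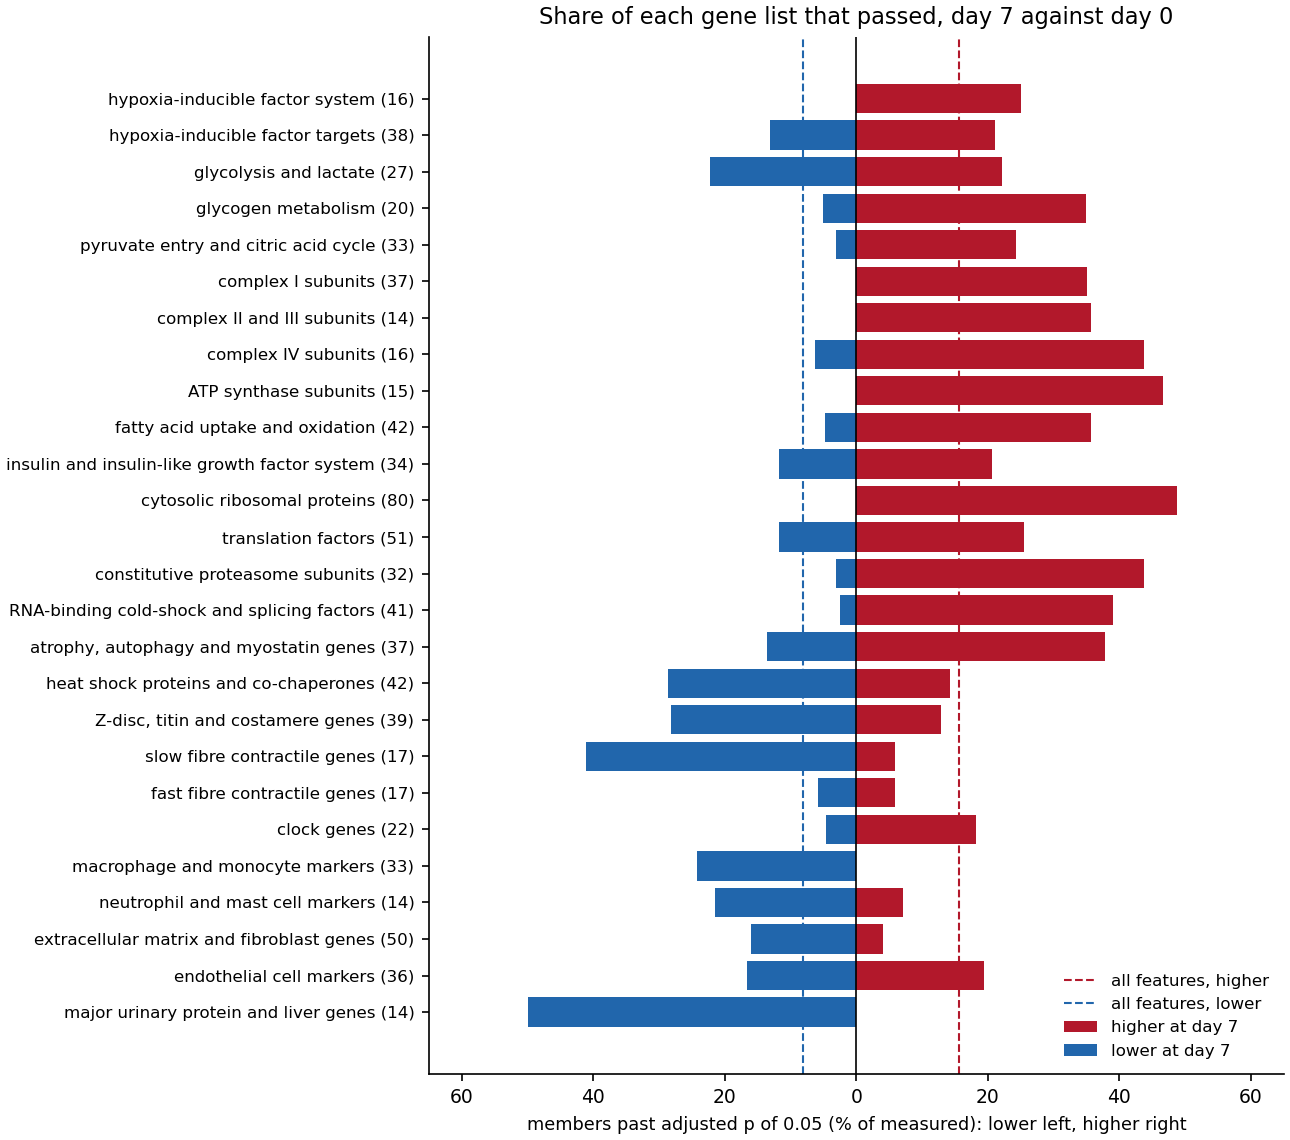
Share of the measured members of 26 gene lists (number in brackets) that were higher (red, to the right) or lower (blue, to the left) at day 7 than at day 0, in percent, with dashed lines at the shares of all features, 15.6 and 8.15. Ribosomal, proteasome, respiratory chain, fatty acid and RNA-binding lists reach well to the right of the line, while heat shock, Z-disc, slow fibre, macrophage and urinary protein lists reach well to the left.

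Day 7 could also be set against day 3, whose 3 arrays lie on the same slide, so that no slide correction enters the difference itself. Unless stated, the p-values come from the full model, in which the spread is estimated with the slide term. At an adjusted p under 0.05, 150 features passed (0.677% of those tested), 99 higher and 51 lower, and 3314 had an unadjusted p under 0.05. With no slide term 62 passed in limma. On slide 1 alone 0 passed in limma, with 2627 at an unadjusted p under 0.05. Of the 150, 108 had also passed in the same direction against day 0, and 61 of these had passed all 3 slide treatments. The 2 comparisons share the day 7 samples, so they are not independent. Leaving out single samples gave 28 to 268, with 33 without day 7 sample 1, 63 without day 7 sample 2 and 268 without day 7 sample 4. The count was 28, 231 and 43 without day 3 samples 1, 2 and 4, and 73 and 81 without day 0 samples 1 and 2. Pdp1 lay 1.33 and Gpam 1.09 above day 3 (adjusted p = 0.00435 and 0.00435), close to their differences from day 0, and Tbc1d4 1.16 (adjusted p = 0.0202). Ankrd37 was 0.91 above day 3 (adjusted p = 0.00571), where it lay at -0.14, 0.15 and -0.06. Hspa1a and Ppp1r3c were -1.4 and -1.14 from day 3 (adjusted p = 0.00174 and 0.0432). The values of Ppp1r3c at day 3 were 5.45, 5.55 and 5.0, all above day 7.

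Clock output genes were higher than at day 3. Dbp lay at 6.16, 6.35 and 5.97 in the day 7 samples, against 2.97, 2.88 and 2.87 in the day 3 samples, a difference of 3.26 ± 0.32 (adjusted p = 0.00146). Tef, Cry2 and the cold-inducible Cirbp were 1.16, 0.84 and 0.68 above day 3 (adjusted p = 0.00435, 0.0447 and 0.0081). Of the 22 clock genes 6 were higher and 1 lower than at day 3, against 150 of all 22145 features (0.677%). The others, chosen after their values were seen, were the repressors Per3 (1.84 ± 0.26), Nr1d2 (0.94 ± 0.16) and Ciart (4.72 ± 0.86), which were higher, and Nfil3, a repressor of the opposite phase (-2.20 ± 0.33), which was lower. None of these 4 passed against day 0, where the differences were 0.80, 0.44, 2.25 and -0.91.

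Ccl8 was -2.29 from day 3 (adjusted p = 0.00568), where it lay at -0.62, -0.29 and 0.78, above every day 0 sample in 2 of 3 samples. Of 33 macrophage markers 6 were lower than at day 3 and 0 higher (median -1.15), against 51 lower and 99 higher of all 22145 features (median 0.05). The summed level of 3 macrophage markers was 12.9 to 28.9 at day 3. Mup1, not above background at day 7, Mup18 and Mup19 were -2.98, -2.51 and -1.61 from day 3 in the fit (adjusted p = 0.0202, 0.0459 and 0.0495). Dnajb4 and Metrnl were lower than at day 3 by 0.79 ± 0.12 and 0.60 ± 0.11 (adjusted p = 0.00917 and 0.0232).

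**Figure D5:**
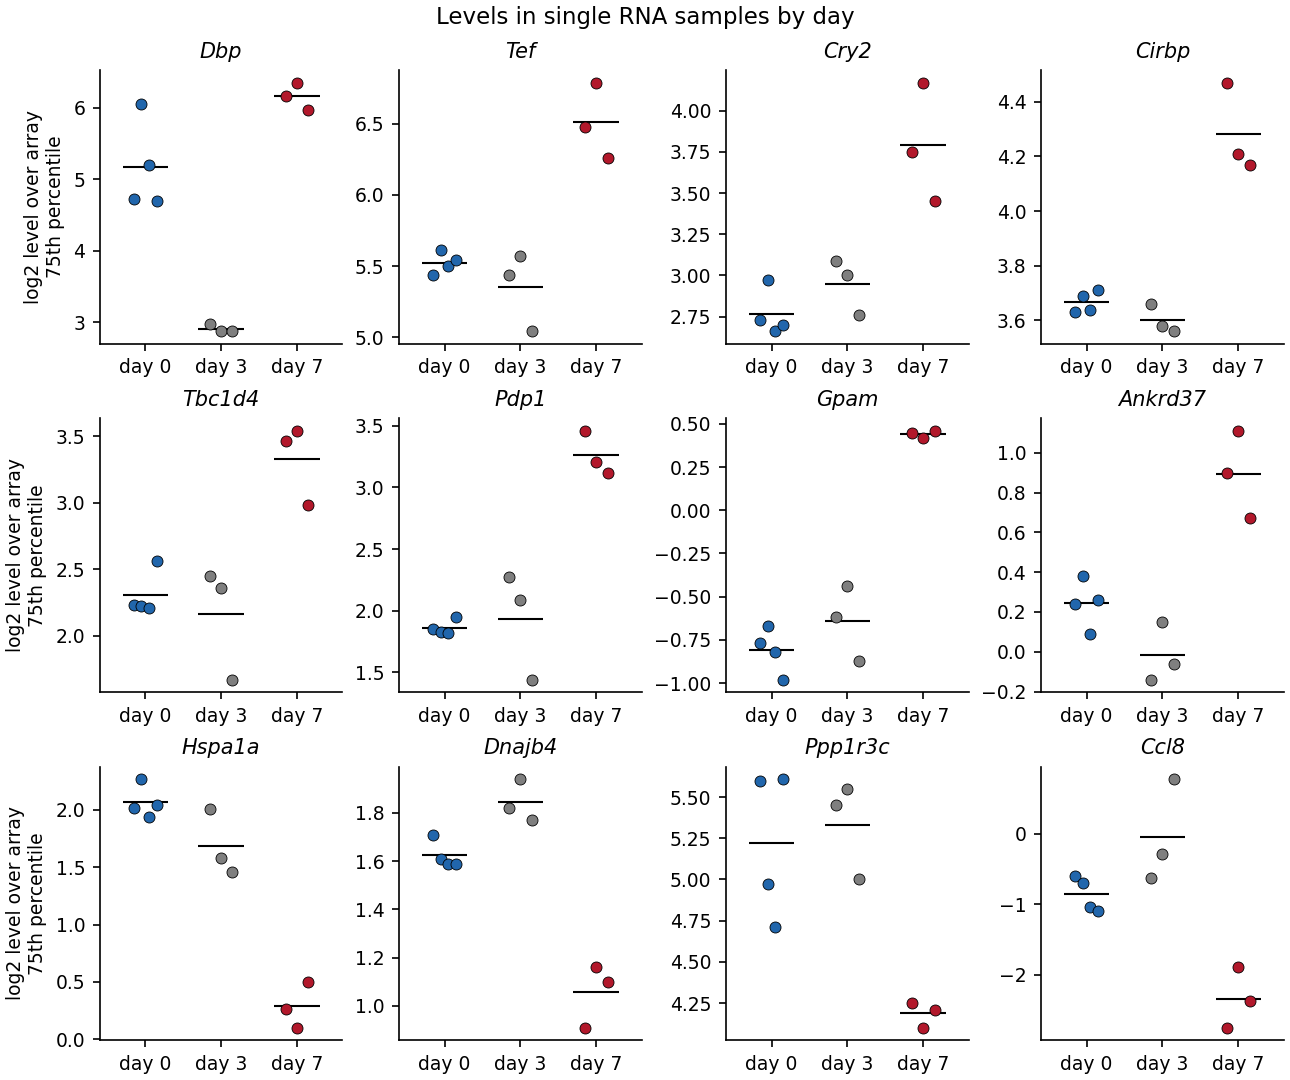
Levels of 12 genes (log2 over the 75th percentile of the array, vertical axes) in each RNA sample at day 0 (after slide adjustment), day 3 and day 7, with a line at the mean. Dbp lies at 2.97, 2.88 and 2.87 at day 3, below both other days, and Pdp1, Gpam, Tef and Cry2 lie above both earlier days at day 7, while Hspa1a, Dnajb4, Ppp1r3c and Ccl8 lie below them.

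Genes that passed all 3 slide treatments and also against day 3 included regulators outside these lists. Lgals4, a galectin, lay at 3.41, 3.75 and 3.46 in the day 7 samples, against 2.33, 2.19, 2.52 and 2.54 in the day 0 samples, and rose by 1.17 ± 0.16 (adjusted p = 0.0018, 1.24 within slide 1, 1.01 against day 3). Zc3h6, a zinc finger gene, lay at 2.28, 2.17 and 1.83 at day 7, against 0.41, 0.39, 0.75 and 0.65 at day 0, and rose by 1.57 ± 0.17 (adjusted p = 0.00106), or 2.96-fold, with 1.64 within slide 1 and 1.20 against day 3. Stat5b, the transcription factor of growth hormone signalling, lay at 4.35, 4.19 and 3.84 at day 7, against 3.15, 3.03, 3.10 and 3.21 at day 0, and rose by 1.01 ± 0.16 (adjusted p = 0.0025, 1.03 within slide 1, 0.76 against day 3). Msh3, a DNA mismatch repair gene, rose by 0.83 ± 0.11 (0.82 within slide 1, 0.62 against day 3), while 2 other probes for it had 0.31 and 0.72 and did not pass. Spsb4, a substrate adaptor of a ubiquitin ligase, lay at 0.43, 0.38 and 0.72 at day 7, against 1.43, 1.70, 1.47 and 1.4 at day 0, and fell by 1.0 ± 0.13 (adjusted p = 0.00163, -1.03 within slide 1, -1.1 against day 3). Phlda1, a growth factor-responsive gene, fell by 1.03 ± 0.18 (-1.03 within slide 1, -0.80 against day 3). Without day 0 sample 2 Lgals4, Zc3h6, Msh3 and Spsb4 passed (adjusted p = 0.00913 to 0.0456), and Stat5b and Phlda1 did not (0.0654 to 0.0669).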

How the data were processed

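Total RNA from soleus was labelled with Cy3 and run on 16 Agilent arrays on 2 slides, with 14 RNA samples in all. The deposited scanner files hold spot intensity from Agilent Feature Extraction 11.0.1.1, with local background subtracted, per the file headers. The deposited series table holds intensity with equal maxima over its columns, and how it was scaled is not given in the sources used here. From the deposited spot intensity, log2 of the processed signal was taken minus the 75th percentile of the array. Probes well above background on fewer than 3 of the 16 arrays were left out, and the brightest probe stood for a gene. Accessions of 27656 of 55681 probes (49.7%) were matched to gene symbols through RefSeq, and the others have no name here.

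limma 3.58.1 in R 4.3.3 was fitted to all 16 arrays with day and slide as terms and RNA sample as a random block (correlation 0.448, residual df 11, prior df 2.45) that treats arrays of the same RNA as correlated but counts each in the degrees of freedom. With the arrays of each RNA sample averaged after the fitted slide effect was removed, 7231 features passed. That run leaves out the uncertainty of the slide effect, so its count cannot show what counting each array does. P-values were 2-sided and adjusted by Benjamini-Hochberg over all 22145 features. On simulated data with 200 changed features for day 7 against day 0, the fit called 112 of them and 13 others among 22145. The simulated features were independent of each other, so this does not speak to how single RNA samples moved the count in the data. Arrays have no counting depth, and precision rests in part on how many RNA samples each day has. Signal also differed, with a 75th percentile of intensity of 67.1 to 77 on the slide 2 arrays of day 0. It was 218 and 271 on the slide 1 arrays of day 0 and 203 to 264 on the day 7 arrays. Python 3.11.15 was used for lists, promoters and plots.

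The samples compared, the gene lists and the tests were chosen with earlier results of these data known. Genes were named by a rule: the 12 largest rises and 12 largest falls that were measured and did not overlap, up to 2 rises and 2 falls per list, and a set of core genes of hypoxia and muscle. A second rule, chosen after values were seen, added list members that passed all 3 slide treatments and genes that also passed against day 3, and supplied 32 of 140 genes. Not all genes these rules picked are reported here. Replicate numbers of day 7 and day 0 did not pair samples (correlations 0.09, -0.04 and 0.00). The alternatives tried were other slide treatments, background correction, scaling, filters, probe summaries, variance models, the replicate block and leaving out each day 0 and day 7 RNA sample. Leaving out each day 3 sample was added after the data were seen. The median spot signal replaced the mean in normexp, which the files used here do not give.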

Additional observations from a re-analysis of the deposited data

Results flagged for a closer look

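In 4 of the 140 genes named by the rules, a day 0 RNA sample stood far from the others of its group by Dixon's test at the 95% level. Chance gives this in about 1 in 20 groups, so the count is no larger than chance would give. Tbc1d4 was 2.56 in day 0 sample 4 and 2.21 to 2.23 in the others, Rps6kb1 was 3.26 in day 0 sample 4 and 3.08 to 3.10 in the others, and Pla2g5, not above background at day 0, was -3.50 in day 0 sample 2 and -4.41 to -4.29 in the others. Csf3r was 6.99 in day 0 sample 2 and 7.15 to 7.17 in the others. In all 4 genes every day 7 sample was above each of these values.

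Genes whose difference from day 0 was not the same at day 7 as at day 3, by the test of day 7 against day 3, were flagged as well. Higher at day 7 than at day 3 were Dbp (3.26), Pdp1 (1.33), Slc43a1 (1.24), Zc3h6 (1.20), Tef (1.16), Tbc1d4 (1.16), Gpam (1.09), Lgals4 (1.01), Ankrd37 (0.91), Cry2 (0.84), Stat5b (0.76), Cirbp (0.68) and Msh3 (0.62). Lower were Mup1 (-2.98), Mup18 (-2.51), Ccl8 (-2.29), Hyou1 (-1.72), Mup19 (-1.61), Hspa1a (-1.4), Ppp1r3c (-1.14), Spsb4 (-1.1), Phlda1 (-0.80), Dnajb4 (-0.79) and Metrnl (-0.60). Hyou1 and Mup1 were not above background on any day 7 array, so their values are fitted ones. The adjusted p-values in limma were 0.00146 to 0.0495, and none passed on slide 1 alone, where 0 of 22145 features did.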

How the results depend on the processing

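The count of 5263 features was 3288 with no slide term (2023 higher) and 2093 on slide 1 alone (1253 higher, 840 lower). Without the slide 1 arrays of day 0, 1652 were higher, and with median scaling 826 were lower. Leaving out 1 RNA sample gave 107 to 5800, with 52 to 3929 higher and 55 to 2005 lower. For that, the correlation of the full model was used where day 0 sample 1 or 2 was left out. The count of 535 list members was 311 with no slide term, 180 on slide 1 alone, 260 without the slide 1 arrays of day 0, 346 with no filter on dim probes and 13 to 625 when 1 RNA sample was left out. Against day 3, 150 became 62 with no slide term, 0 on slide 1 alone, 730 with normexp, 56 with median scaling, 44 with no filter, 378 with probes above background on all 9 arrays, 392 with trend and robust variance, and 28 to 268 when 1 RNA sample was left out. Replicate numbers did not pair the samples. With the replicate block 5027 passed against day 0 and 44 against day 3, and 2 of 125 named genes no longer passed. Signs turned without the slide 1 arrays of day 0 for Itga5 (0.64), Actn1 (0.66), Pfkl (0.18), Eef1a2 (0.47), Hbb-b1 (0.23), Nr1d1 (0.79) and Ldha (-0.06), with no slide term for Nr1d1 (0.11), and with the mean of probes for Ldha (-0.17). The cause was not tested. The other genes that passed kept their sign in every alternative run, and 0 to 31 of 125 no longer passed in the same direction in settings other than leaving out 1 RNA sample, with 31 without the slide 1 arrays of day 0. Signal close to background limits Fam227b, Slc22a2, Cdyl2, Pla2g5, Mstn, Hyou1, Hsd17b7 and Mup20.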

Other observations

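Gene lists outside the main comparisons held further members that differed. Of 30 genes of p53 signalling and apoptosis 7 were higher and 1 lower at day 7 (23.3% and 3.33%, against 15.6% and 8.15% of all features, median 0.22), and Casp9, the initiator caspase of the mitochondrial death pathway, was higher by 0.66 ± 0.13 (adjusted p = 0.00451, 0.61 within slide 1). Of 28 genes of the ATF4 stress response 5 were higher and 4 lower (17.9% and 14.3%, median 0.05), with Trib3, a pseudokinase of that pathway, at 1.64, 1.20 and 1.16 in the day 7 samples, against 0.50, 0.21, 0.73 and 0.36 in the day 0 samples (0.90 ± 0.22, adjusted p = 0.0121). Of 29 genes of folding in the endoplasmic reticulum 4 were higher and 4 lower (13.8% and 13.8%, median 0.09), and Hyou1, a chaperone there, was above background on 2 of the 6 day 0 arrays and on no day 7 array and was at least 1.02-fold lower (adjusted p = 0.00211, with a fitted difference of -0.43 under normexp). Without day 0 sample 2 the adjusted p of these 3 genes was 0.0549 to 0.178.

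Hsd17b7, an enzyme of cholesterol synthesis, lay at -2.07, -1.78 and -1.57 in the day 7 samples, against -2.80, -2.97, -2.95 and -3.58 in the day 0 samples, was above background on 1 of the 6 day 0 arrays and differed by 1.24 ± 0.33 (adjusted p = 0.017, 1.14 within slide 1, and adjusted p = 0.132 without day 0 sample 2). Another probe for it had 0.19 and did not pass. Slc43a1, a carrier of large neutral amino acids, differed by 0.88 ± 0.24 (adjusted p = 0.0201, 1.0 within slide 1, and adjusted p = 0.147 without day 0 sample 2). Both passed all 3 slide treatments.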
